A study of Mus musculus with 10 samples.

Results

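The genes that copy DNA in S phase were followed as a set of 57 in mouse neural stem cells with and without Atrx, a chromatin remodeller that deposits the histone variant H3.3 together with Daxx. The members were picked by gene symbol for their known roles in origin licensing, helicase assembly and activation, DNA synthesis, nucleotide supply, S phase entry and assembly of new chromatin. All 57 were found among the 21101 genes of the deposited table, and all 57 were among the 15660 genes tested. None dropped out through the filter on low values, which asked for at least 1 TPM, a measure of transcript abundance that allows for gene length, in at least 2 libraries.

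Replication starts where the origin recognition complex, Cdc6 and Cdt1 load the ring of Mcm2 to Mcm7 onto DNA in G1, a step called licensing that geminin (Gmnn) blocks from S phase onward. The kinase Cdc7 with its partner Dbf4, cyclin E with Cdk2, and Cdc45 with the GINS complex then turn the ring into a moving helicase, behind which the polymerases, the clamp Pcna and its loader work. Many of these genes are known targets of E2F factors. Such targets are transcribed in dividing cells and fall when the cells leave the cell cycle.

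The cells were p53-null neural stem cells into which IDH1(R132H), a mutant isocitrate dehydrogenase of glioma, had been transduced, and every group carried both alterations. The control lines were Control NSC#1 and Control NSC#2, and mA16d#4, mA19d#4 and mA19d#7 were the lines deleted of Atrx. Each line gave 1 library in proliferation medium, which held EGF and bFGF at 20 ng/ml, and 1 library after 8 days in differentiation medium, a neural basal medium with B27 and without growth factors. Below, values are listed in the order of lines just given, cells in proliferation medium are called growing, and cells after 8 days are called cells without growth factors. The labels do not say how Atrx was deleted, whether a line is 1 clone, whether lines share an origin, or the age of the animals. The p-values therefore measure the spread between these lines, which may in part be technical.

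The values are TPM, so levels of different genes can be compared. All 10 libraries hold the same set of sorted values, so read depth cannot be recovered and the counting error of a value cannot be estimated. Atrx itself was at 127 to 163 TPM in the 4 control libraries and at 42.8 to 73.98 TPM in the 6 Atrx-deleted ones, and its transcript was lower and not lost. All 8 neural stem cell markers were at 1 TPM or more in all 10 libraries, and the summed markers of microglia, endothelium and fibroblasts did not pass 11.3 TPM in any library. The astrocyte markers summed to 1958 to 2663 TPM in growing control cells, 8872 to 10014 TPM in control cells without growth factors, 2772 to 3807 TPM in growing Atrx-deleted cells and 3845 to 7174 TPM in Atrx-deleted cells without growth factors. The oligodendrocyte lineage markers summed to 4290 to 4479, 3828 to 4186, 3199 to 3624 and 1879 to 4844 TPM in the same order. The neuron markers summed to 681 to 707, 821 to 853, 767 to 948 and 442 to 1228 TPM. The 12 mitotic markers summed to 789 to 1297, 133 to 146, 900 to 1407 and 384 to 901 TPM in the same order. In 3 of the 5 lines the library without growth factors had a higher Spearman's rho across genes with the growing library of another line than with that of its own. The gap was widest for the label mA19d#7, at 0.926 with its own line and 0.957 with mA16d#4. It was 0.932 with its own line and 0.945 with Control NSC#2 for Control NSC#1, and 0.9599 with its own line and 0.9603 with mA19d#7 for mA19d#4. All sample codes of the control libraries share 1 prefix and those of the Atrx-deleted libraries another, so any handling that followed it cannot be told apart from the genotype.

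After 8 days without growth factors a part of the replication genes fell in the control lines, led by geminin, and in that medium geminin and genes of the Mcm helicase were higher in Atrx-deleted than in control cells. A difference was called where the adjusted p of limma, a linear model with moderated variance fitted to log2(TPM + 1) of all tested genes, was below 0.05, and every log2 difference below is on that scale. In the control lines 5 of the 57 members were called lower with the change of medium (Gmnn, Dbf4, Mcm6, Tk1 and Mcm10) and 0 higher. The background was 2.56% of all tested genes called lower and 1.95% called higher. The median log2 difference was -0.54 over the members, against -0.01 over all tested genes, and 48 members had a negative difference. In cells without growth factors 6 members were called higher in Atrx-deleted than in control lines (Gmnn, Mcm5, Mcm10, Mcm3, Chaf1a and Mcm6) and Mcm9 was called lower, where 1.55% and 1.33% of all tested genes were. There the median was 0.65 over the members against 0.02 over all tested genes, and 53 members had a positive difference. The mitotic markers were lowest in the same control libraries, and their part in these differences was not tested. In bulk libraries fewer dividing cells and less RNA per cell cannot be told apart.

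The other comparisons gave no call among the members. Between growing Atrx-deleted and growing control cells limma called 0 members, beside 0.46% of all tested genes. At an unadjusted p below 0.05, 10 of the 57 members had a positive difference and 0 a negative one. Over all 15660 tested genes these counts were 1071 and 1077. The median was 0.19 over the members and -0.02 over all tested genes. It was 0.39 without the growing library of Control NSC#1 and 0.0099 without that of Control NSC#2, and with a weight per group 3 members were called (Mcm3, Mcm7 and Mcm6). In the Atrx-deleted lines 0 members were called for the change of medium, beside 0.083% of all tested genes. The median was -0.20 over the members and 0.01 over all tested genes. At an unadjusted p below 0.05, 2 members were higher and 2 lower, beside 1171 and 1148 of the 15660 tested genes. The interaction, which tests whether the response to the medium differs between the genotypes, was called for 0 members and for 0.00639% of all tested genes, which is 1 gene. Its median was 0.41 over the members and 0.03 over all tested genes. At an unadjusted p below 0.05, 5 members were higher and 0 lower in it, beside 579 and 520 of the 15660 tested genes. A response to the medium that differs between the genotypes was thus not shown for any single member. The comparisons share libraries and are not independent of each other.

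**Figure D1:**
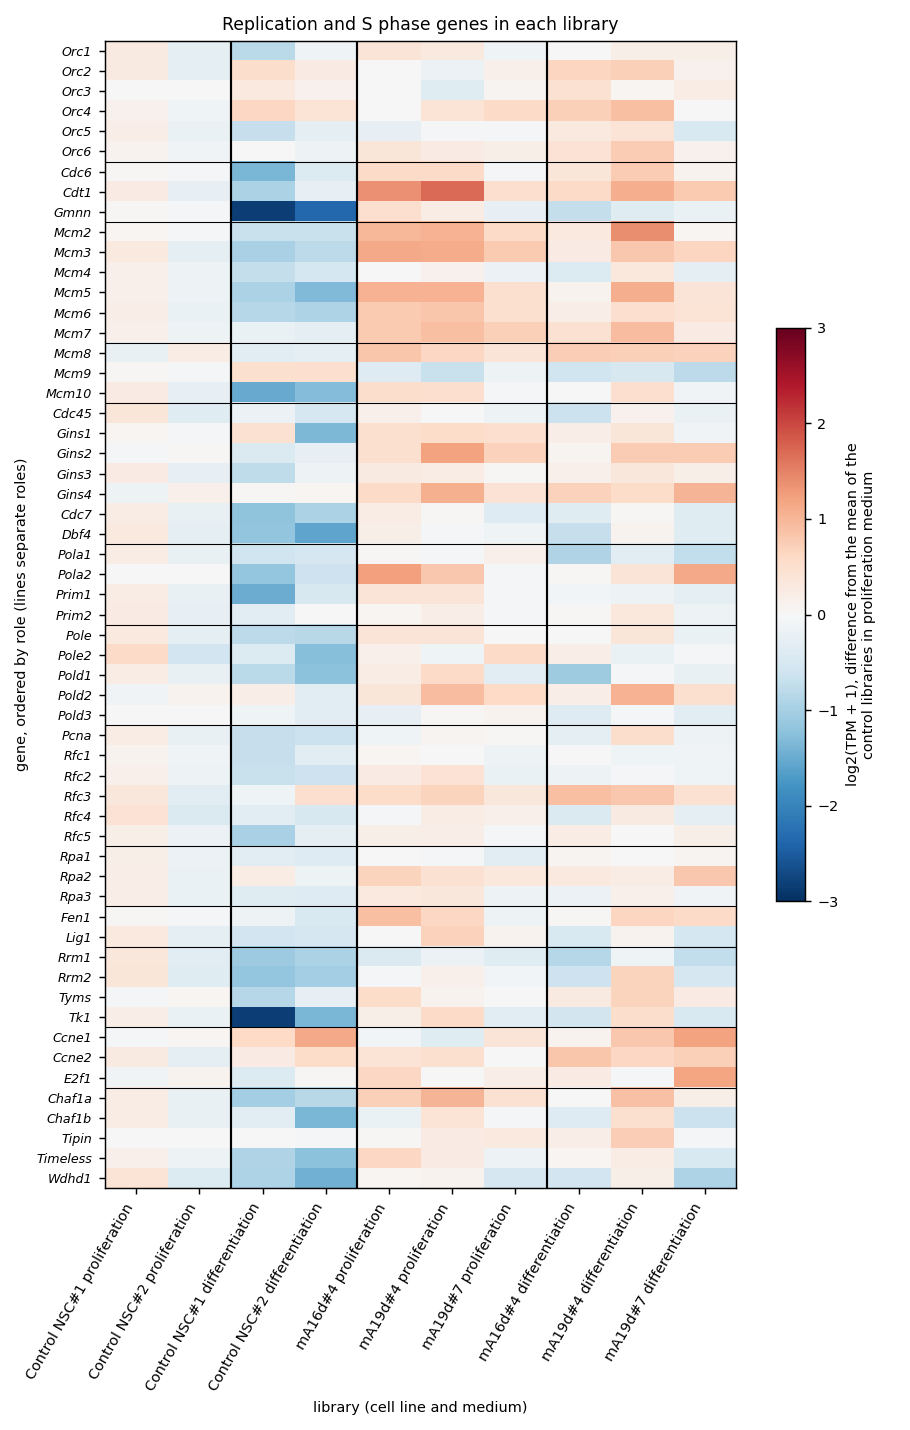
Each row is 1 of the 57 genes and each column 1 library, with colour giving log2(TPM + 1) minus the mean of the 2 control libraries in proliferation medium (red higher, blue lower). The 2 control libraries without growth factors are mostly blue (36 genes lie below both growing control libraries), the Atrx-deleted libraries are red over Cdt1 and Mcm2 to Mcm7 except Mcm4, and for Mcm9 the colours are reversed.

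Libraries without overlap give a simpler view of the same pattern. In control cells without growth factors 36 members lay below both growing control libraries, where 31.6% of all tested genes did, while 4 members (Orc3, Orc4, Mcm9 and Ccne1) lay above both, where 29.6% of all tested genes did. Without growth factors 38 members were higher in all 3 Atrx-deleted lines than in both control lines, where 18.2% of all tested genes were, and Mcm9 alone was lower in all 3, where 18.1% were. Among growing cells 16 members were higher in all 3 Atrx-deleted lines than in both control lines, against 17.8% of all tested genes, which is 28.1% of the members. In the Atrx-deleted lines 3 members (Gins1, Pola1 and Prim1) were lower in every library without growth factors than in every growing one, beside 7.85% of all tested genes.

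The counts of calls depended on single libraries of both genotypes. The 7 calls between the genotypes without growth factors became 0 without the Control NSC#1 library of that medium and 1 (Gmnn) without that of Control NSC#2, 4 without either growing control library or without either mA19d#4 library, and 12 without the mA19d#7 library of that medium, a fit which kept all 7 and added Tk1, Mcm2, Timeless, Mcm7 and Orc5. When the 2 groups were fitted alone, 0 were called, and 4 were called without a filter. The 5 calls in the control lines became 0 without either library of Control NSC#1, 1 without either library of Control NSC#2 or the growing mA19d#4 library, 2 without the growing mA16d#4 library, 3 without the growing mA19d#7 library or the mA16d#4 library without growth factors, and 9 without the mA19d#4 library without growth factors. With the cell line as a block 3 were called (Gmnn, Dbf4 and Tk1), and 12 with that block and without mA19d#7. A weight per group gave 20 calls, the fit without a filter 1 and the fit without the trend 2.

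Geminin gave the largest differences of the 57 members in both called comparisons. This protein, which binds Cdt1 and keeps origins from being licensed again, is encoded by Gmnn (chromosome 13, 24751845 to 24761923, minus strand, GRCm38). It was at 31.3 and 29.7 TPM in growing control cells, 3.45 and 5.10 TPM in control cells without growth factors, 43.9, 35.5 and 25.5 TPM in growing Atrx-deleted cells and 18.2, 23.5 and 26.4 TPM in Atrx-deleted cells without growth factors. The 2 control libraries without growth factors were far below the other 8, and the Atrx-deleted libraries without growth factors lay below the growing control libraries but overlapped the growing Atrx-deleted ones. In the control lines Gmnn fell by 2.59 on the log2 scale (SE 0.305, adjusted p = 0.00532), from 30.5 ± 1.13 to 4.28 ± 1.16 TPM (SD, n = 2). Without growth factors it was higher in the Atrx-deleted lines by 2.17 (SE 0.278, adjusted p = 0.00705), at 22.7 ± 4.18 TPM (SD, n = 3). The second call stayed below 0.05 in 9 of the 10 fits that left out 1 library, and the first in 8. The second was lost without the Control NSC#1 library of that medium, and the first without either library of Control NSC#1. Over the 10 fits the second difference ran from 1.94 to 2.40 and the first from -2.82 to -2.37. In the Atrx-deleted lines the change with the medium was -0.58 (adjusted p = 0.312), and the interaction was 2.01 (SE 0.394, adjusted p = 0.288), the smallest adjusted p of any member in that test.

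Cdt1, which carries the Mcm ring to the origin, followed another course. Its levels were 16.3 and 11.2 TPM in growing control cells, 6.50 and 11.3 TPM in control cells without growth factors, 36.4, 45.9 and 19.8 TPM in growing Atrx-deleted cells and 20.5, 29.9 and 23.9 TPM in Atrx-deleted cells without growth factors. All 3 growing Atrx-deleted libraries lay above both growing control libraries, and the same held without growth factors. The differences were 1.19 in growing cells (adjusted p = 0.202) and 1.41 without growth factors (adjusted p = 0.0713), and neither passed. Within the control lines the libraries overlapped between the media (log2 difference -0.60, adjusted p = 0.467). The ratio of Cdt1 to Gmnn, chosen after the values were seen and not tested, was 0.522 and 0.379 in growing control cells and 1.88 and 2.21 in control cells without growth factors. In the Atrx-deleted lines it was 0.829, 1.29 and 0.776 in growing cells and 1.13, 1.27 and 0.904 without growth factors. The 6 Atrx-deleted values thus lay between the control values of the 2 media. Cdc6, the ATPase that loads the ring with Cdt1, was the lowest member of all with a median of 5.28 TPM over the 10 libraries. It was at 5.12 and 4.82 TPM in the growing control lines and 1.30 and 3.47 TPM without growth factors, and at 7.89, 7.87 and 4.82 TPM in the growing Atrx-deleted lines and 6.72, 9.17 and 5.45 TPM without growth factors. The control values without growth factors were the lowest of the 10, with a log2 difference of 1.31 between the genotypes there (adjusted p = 0.0972).

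**Figure D2:**
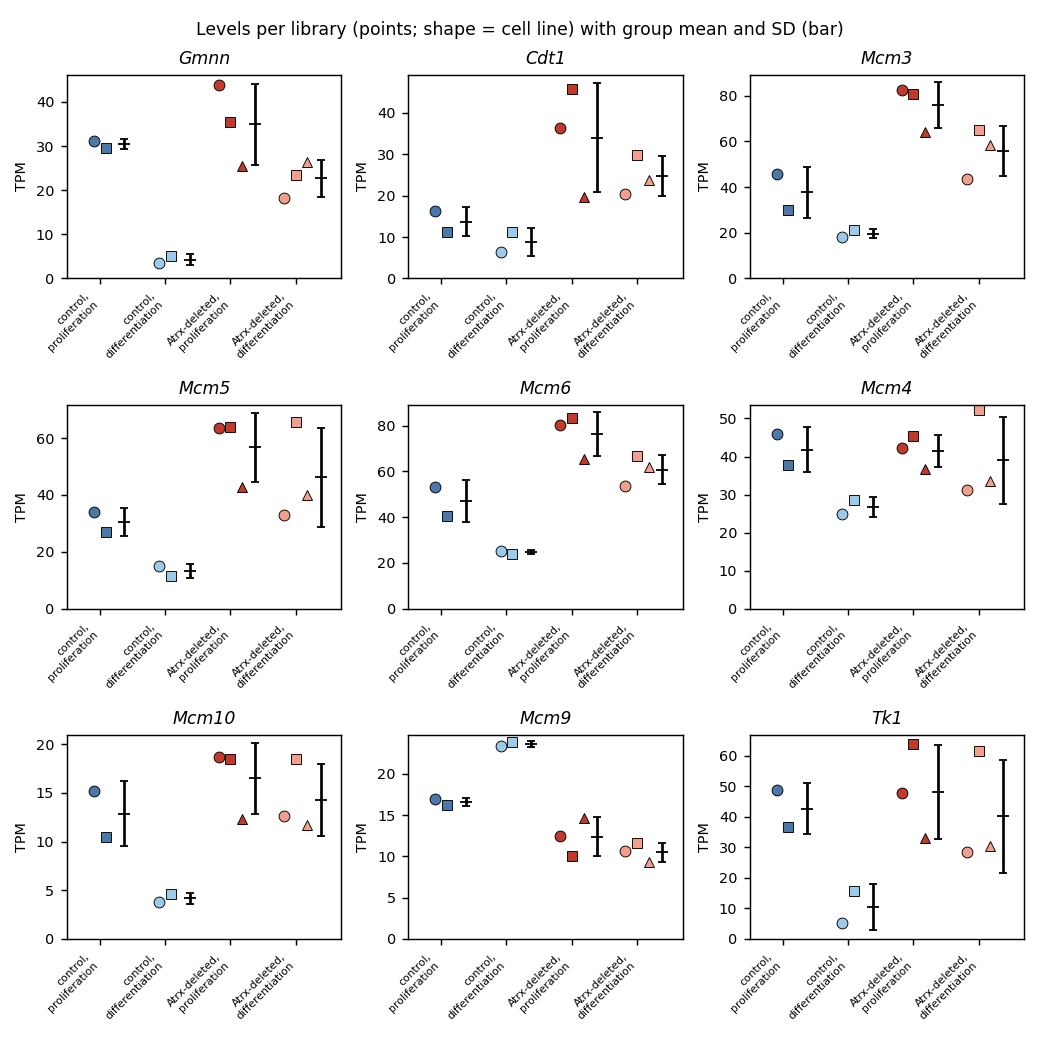
Level in TPM (vertical axis, from 0) of 9 members in each library, grouped by genotype and medium on the horizontal axis. Circles are Control NSC#1 or mA16d#4, squares Control NSC#2 or mA19d#4, triangles mA19d#7, and the black bar is the group mean with its SD. Gmnn, Mcm10 and Tk1 drop in the control lines without growth factors (Gmnn to 3.45 and 5.10 TPM), Mcm3, Mcm5 and Mcm6 are above both control values of their medium in every Atrx-deleted library, Mcm4 overlaps between growing groups, and Mcm9 is lowest in the Atrx-deleted lines.

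The origin recognition complex marks origins for licensing, and its 6 subunits gave no call in any of the 5 comparisons. Orc1, the subunit that comes and goes with the cycle, was at 6.35 and 4.01 TPM in the growing control lines and 2.45 and 4.54 TPM without growth factors, and at 6.97, 6.37 and 4.50 TPM in the growing Atrx-deleted lines and 5.04, 5.83 and 5.90 TPM without growth factors. Orc2 was at 42.4 and 29.2 TPM in the growing control lines and 51.4 and 42.2 TPM without growth factors, and at 34.9, 30.9 and 38.9 TPM in the growing Atrx-deleted lines and 55.9, 58.8 and 38.3 TPM without growth factors. The genotypes overlapped in both media for Orc2, and for Orc1 the Atrx-deleted values without growth factors lay above the control values (0.59, adjusted p = 0.376). Without growth factors Orc6 also lay above the controls in all 3 Atrx-deleted lines, at 43.8, 55.5 and 35.4 against 32.2 and 28.9 TPM (0.52, adjusted p = 0.197). Orc3, Orc4 and Orc5 overlapped, with differences of 0.04, 0.02 and 0.58. The median of the complex was 0.07 for the medium in the control lines, the only role besides S phase entry without a negative median there. Exon bases of Orc2, Orc4, Orc5 and Orc6 are shared with other tested genes, and whether the authors' counting used strand is not given in the sources used here, so these levels are uncertain.

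The ring of Mcm2 to Mcm7, the motor of the replicative helicase, held 3 of the 6 members called higher in the Atrx-deleted lines without growth factors. Mcm3 (chromosome 1, 20802968 to 20820312, minus strand) was at 45.7 and 29.8 TPM in growing control cells, 18.2 and 21.1 TPM in control cells without growth factors, 82.5, 80.8 and 64.3 TPM in growing Atrx-deleted cells and 43.8, 65.1 and 58.6 TPM in Atrx-deleted cells without growth factors. Mcm5 (chromosome 8, 75109569 to 75128439, plus strand) was at 34.1 and 27.1 TPM in the growing control lines and 15.1 and 11.5 TPM without growth factors, and at 63.4, 63.96 and 42.7 TPM in the growing Atrx-deleted lines and 32.9, 65.8 and 39.9 TPM without growth factors. Mcm6 (chromosome 1, 128331590 to 128359664, minus strand) was at 53.4 and 40.4 TPM in the growing control lines and 25.3 and 24.03 TPM without growth factors, and at 80.4, 83.3 and 65.3 TPM in the growing Atrx-deleted lines and 53.7, 66.6 and 62.1 TPM without growth factors. For each of these genes every Atrx-deleted library was above both control libraries of its medium. Without growth factors the log2 differences were 1.45 for Mcm3 (SE 0.238, adjusted p = 0.0177), 1.67 for Mcm5 (SE 0.303, adjusted p = 0.0226) and 1.26 for Mcm6 (SE 0.187, adjusted p = 0.0107). Each of the 3 stayed called in 8 of the 10 fits that left out 1 library. Mcm6 was also the only subunit of the ring called for the medium in the control lines, where it fell by 0.89 (SE 0.205, adjusted p = 0.0391), from 46.9 ± 9.16 to 24.7 ± 0.882 TPM (SD, n = 2). That call held in 4 of the 10 fits. Mcm5 and Mcm3 had values of -1.15 (adjusted p = 0.0818) and -0.88 (adjusted p = 0.0855).

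The rest of the ring was uneven. Mcm2 was at 50.6 and 45.9 TPM in the growing control lines and 29.9 and 29.8 TPM without growth factors, and at 97.7, 99.9 and 72.7 TPM in the growing Atrx-deleted lines and 59.3, 128 and 50.6 TPM without growth factors. Mcm7, the highest of the ring, was at 80.1 and 64.5 TPM in the growing control lines and 62.7 and 58.7 TPM without growth factors, and at 125, 134 and 119 TPM in the growing Atrx-deleted lines and 99.2, 137 and 85.6 TPM without growth factors. In both media each Atrx-deleted library was above both control libraries for Mcm2 and Mcm7, without a call (without growth factors 1.26, adjusted p = 0.0731, and 0.78, adjusted p = 0.0674). Mcm4 was at 46.01 and 37.6 TPM in the growing control lines and 24.9 and 28.7 TPM without growth factors, and at 42.2, 45.3 and 36.8 TPM in the growing Atrx-deleted lines and 31.3, 52.2 and 33.7 TPM without growth factors. Its growing groups overlapped (-0.01, adjusted p = 0.992), and without growth factors the difference was 0.49 (adjusted p = 0.272). Set against the mean of the other 5 subunits, a ratio chosen after the values were seen, Mcm4 stood between 0.823 and 0.988 in the 4 control libraries and between 0.470 and 0.567 in the 6 Atrx-deleted libraries. The ranges did not overlap in either medium, and the ratio was not tested.

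In growing cells 5 of the 6 subunits, all but Mcm4, had an unadjusted p below 0.05 between the genotypes. Over all 15660 tested genes 2148 did, in either direction. The differences of the 5 subunits ran from 0.70 for Mcm6 to 1.01 for Mcm3. Mcm3 came closest to a call with an adjusted p of 0.107, followed by Mcm7 (0.80, adjusted p = 0.13) and Mcm6 (adjusted p = 0.146). With a weight per group for the spread, which limma estimated from the data, these 3 passed, with adjusted p = 0.0276 for Mcm3, 0.0214 for Mcm7 and 0.0412 for Mcm6. The interaction for the 6 subunits lay between -0.02 for Mcm7 and 0.82 for Mcm5 and was called for 0 of them, with a smallest adjusted p of 0.732 for Mcm6.

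The stretch before the start of the called members is shown because E2F-type letters are frequent near the members. In RefSeq windows of 300 bases (250 before to 50 after the start, GRCm38.p6), 47 of the 57 members had an entry. Each window was searched on both strands for TTTCCCGC, TTTGGCGC, TTTCGCGC and TTTGCCGC. At least 1 of the 4 was found in 16 of the 47 members, which is 34%, against 4.31% of 11692 tested genes with an entry and 2.6% of all 27025. In the wider list of other replication genes described further below it was found in 16 of 41 with an entry, which is 39%. The letters CCAAT, the core of the NF-Y box, were in 55.3% of the members and 42.6% of tested genes, and TTTGAA, the letters of the CHR element of mitotic genes, in 14.9% and 14.1%. A match is a description and no evidence of binding. Below are 160 bases before the RefSeq start of the called members whose stretch overlaps no annotated exon, read in the direction of the gene, with E2F-type letters in capitals: Mcm3 chr1:20820313-20820472 on the minus strand, Mcm5 chr8:75109349-75109508 on the plus strand, Mcm6 chr1:128359706-128359865 on the minus strand, Mcm10 chr2:5012792-5012951 on the minus strand and Chaf1a chr17:56040256-56040415 on the plus strand.
Mcm3: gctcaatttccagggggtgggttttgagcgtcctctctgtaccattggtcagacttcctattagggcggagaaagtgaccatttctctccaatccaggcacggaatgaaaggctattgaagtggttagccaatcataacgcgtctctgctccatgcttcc
Mcm5: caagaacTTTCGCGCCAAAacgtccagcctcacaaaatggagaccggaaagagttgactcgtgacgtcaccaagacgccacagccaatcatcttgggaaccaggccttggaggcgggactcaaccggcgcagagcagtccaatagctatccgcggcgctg
Mcm6: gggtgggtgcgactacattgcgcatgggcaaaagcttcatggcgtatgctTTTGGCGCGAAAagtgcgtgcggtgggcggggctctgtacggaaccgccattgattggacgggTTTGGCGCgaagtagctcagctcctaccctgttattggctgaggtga
Mcm10: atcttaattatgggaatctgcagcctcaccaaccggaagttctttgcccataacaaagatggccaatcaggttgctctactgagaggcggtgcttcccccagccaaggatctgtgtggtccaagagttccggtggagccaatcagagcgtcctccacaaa
Chaf1a: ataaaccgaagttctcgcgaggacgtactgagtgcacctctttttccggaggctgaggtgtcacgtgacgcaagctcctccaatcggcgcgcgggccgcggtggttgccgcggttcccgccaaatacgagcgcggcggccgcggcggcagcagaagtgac

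In Mcm5 and Mcm6 a TTTGGCGC and a TTTCGCGC overlapped on opposite strands, which gives the 12 capitals in a row, and Mcm6 held a further TTTGGCGC. Mcm3 held its 2 matches after the start, outside the bases shown. Mcm10 and Chaf1a held none of the 4 in the window and had CCAAT on either strand 3 times and 1 time. The windows of the called members Mcm9, Dbf4 and Tk1, whose stretches overlap annotated exons and are not shown, also held none of the 4. Gmnn had no window. Only exact matches to the 4 were marked, and variants of them were not searched. Windows of Mcm7, Mcm8, Cdt1, Cdc6, Orc1, Orc3, Gins3, Pola1, Pole2, Pold1, Pold3, Rfc3 and Lig1 also held E2F-type letters. For Mcm5, Mcm6 and Mcm7 the bases after the RefSeq start were not found near the start of any GENCODE transcript. The GENCODE genes of Mcm5 and Mcm6 begin further downstream, at 75109569 and 128359664, so the place of their matches relative to the start is uncertain.

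Mcm10, Mcm8 and Mcm9 are relatives of the ring with other tasks. Mcm10 (chromosome 2, 4989714 to 5012791, minus strand), which helps the helicase to start moving, was at 15.2 and 10.5 TPM in growing control cells, 3.76 and 4.57 TPM in control cells without growth factors, 18.7, 18.5 and 12.3 TPM in growing Atrx-deleted cells and 12.6, 18.5 and 11.7 TPM in Atrx-deleted cells without growth factors. The control libraries without growth factors were the lowest. Mcm10 fell by 1.41 in the control lines (SE 0.339, adjusted p = 0.0457) and was 1.54 higher in Atrx-deleted than in control cells without growth factors (SE 0.309, adjusted p = 0.032). These calls held in 2 and 4 of the 10 fits that left out 1 library, and the interaction was 1.21 (adjusted p = 0.608). Mcm8, which works with Mcm9 in repair by recombination, was at 3.41 and 4.93 TPM in the growing control lines and 3.13 and 3.16 TPM without growth factors, and at 8.11, 6.90 and 5.66 TPM in the growing Atrx-deleted lines and 7.59, 7.45 and 7.24 TPM without growth factors, with a difference of 1.02 without growth factors (adjusted p = 0.0934).

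Mcm9 (chromosome 10, 53536315 to 53630439, minus strand) ran against most of the other members. It was at 16.9 and 16.3 TPM in growing control cells, 23.4 and 23.9 TPM in control cells without growth factors, 12.5, 10.01 and 14.7 TPM in growing Atrx-deleted cells and 10.6, 11.6 and 9.28 TPM in Atrx-deleted cells without growth factors. Every Atrx-deleted library was below all 4 control libraries. Without growth factors it was lower by 1.10 on the log2 scale (-1.10, SE 0.238, adjusted p = 0.0397), at 10.5 ± 1.17 (SD, n = 3) against 23.6 ± 0.359 TPM (SD, n = 2), a call that held in 2 of the 10 fits. In growing cells the difference was -0.41 (adjusted p = 0.494). The ratio of Mcm9 to Mcm8 was between 3.30 and 7.56 in the control libraries and between 1.28 and 2.60 in the Atrx-deleted ones, again chosen after the values were seen and not tested. Asf1a, a histone chaperone gene on the opposite strand, lies inside Mcm9, and 19.2% of the exon bases of Mcm9 are shared with its exons. Asf1a was at 33.99 and 34.1 TPM in the growing control lines and 68.5 and 69.6 TPM without growth factors, and at 38.6, 33.7 and 45.005 TPM in the growing Atrx-deleted lines and 51.7, 56.6 and 48.6 TPM without growth factors. It rose in the control lines (1.00, adjusted p = 0.0183) and differed by -0.40 between the genotypes without growth factors (adjusted p = 0.225). In the shared bases, reads of these 2 genes cannot be told apart unless the counting used strand, and the part of Asf1a in the values of Mcm9 was not tested.

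Of the 7 genes that turn the loaded ring into a helicase, Dbf4 was called. Dbf4 (chromosome 5, 8396973 to 8422716, minus strand), a partner that activates the kinase Cdc7, was at 61.7 and 40.9 TPM in growing control cells, 21.5 and 16.2 TPM in control cells without growth factors, 57.2, 47.9 and 46.1 TPM in growing Atrx-deleted cells and 30.8, 54.3 and 38.9 TPM in Atrx-deleted cells without growth factors. It fell by 1.38 in the control lines (SE 0.294, adjusted p = 0.0292), which held in 5 of the 10 fits, and was 1.07 between the genotypes without growth factors (adjusted p = 0.0636). Cdc7 was at 33.6 and 24.8 TPM in the growing control lines and 11.9 and 14.5 TPM without growth factors, and at 34.1, 29.5 and 21.9 TPM in the growing Atrx-deleted lines and 22.1, 29.5 and 22.02 TPM without growth factors, with -1.08 in the control lines (adjusted p = 0.0581). For both genes each control library without growth factors was below the 8 others. Gins2 was at 19.3 and 20.2 TPM in the growing control lines and 14.2 and 16.5 TPM without growth factors, and at 27.7, 46.7 and 32.6 TPM in the growing Atrx-deleted lines and 20.95, 34.3 and 34.1 TPM without growth factors, and its 6 Atrx-deleted values were all above the 4 control values. The differences of Gins2 between the genotypes were 0.79 (adjusted p = 0.254) and 0.88 (adjusted p = 0.119), and 67.3% of its exon bases are shared with Gse1 on the opposite strand. Gins4 had values of 0.69 and 0.71 and likewise lay above the controls in each Atrx-deleted library. Cdc45 was at 15.3 and 8.86 TPM in the growing control lines and 10.3 and 7.91 TPM without growth factors, and at 13.1, 11.8 and 10.4 TPM in the growing Atrx-deleted lines and 7.05, 12.9 and 10.1 TPM without growth factors, and its groups overlapped in both media. Gins1 and Gins3 differed by 0.59 and 0.68 without growth factors, where Gins1 was at 17.01 and 4.15 TPM in the 2 control lines.

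Polymerase alpha with primase lays the primers, and polymerases epsilon and delta copy the strands. None of the 9 members was called in any comparison. Pola1, the catalytic subunit of polymerase alpha, was at 16.3 and 11.7 TPM in the growing control lines and 8.86 and 9.49 TPM without growth factors, and at 14.1, 13.5 and 15.5 TPM in the growing Atrx-deleted lines and 6.89, 10.97 and 7.84 TPM without growth factors. Its values without growth factors lay below those of growing cells in both genotypes, by -0.54 (adjusted p = 0.367) and -0.70 (adjusted p = 0.236), and the latter is the smallest adjusted p of any member for the medium in the Atrx-deleted lines. Pola2, its B subunit, was at 15.8 and 15.4 TPM in the growing control lines and 6.42 and 9.87 TPM without growth factors, and at 37.9, 28.2 and 14.9 TPM in the growing Atrx-deleted lines and 16.04, 20.7 and 35.3 TPM without growth factors, with 1.40 between the genotypes without growth factors (adjusted p = 0.0972). The primase subunits Prim1 and Prim2 had 0.82 and 0.24 there. Pole, the leading strand polymerase, was at 17.7 and 11.5 TPM in the growing control lines and 7.90 and 7.66 TPM without growth factors, and at 19.001, 19.1 and 14.5 TPM in the growing Atrx-deleted lines and 14.2, 18.7 and 12.4 TPM without growth factors, and its control values without growth factors were the lowest, with -0.80 for the medium (adjusted p = 0.169). Pold1, the catalytic subunit of delta, was at 16.02 and 11.4 TPM in the growing control lines and 7.25 and 5.17 TPM without growth factors, and at 16.1, 20.7 and 10.7 TPM in the growing Atrx-deleted lines and 5.99, 13.1 and 11.4 TPM without growth factors and overlapped between the genotypes. Pole2, Pold2 and Pold3 gave 0.83, 0.65 and -0.03 between the genotypes without growth factors.

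The clamp and its loader had 0 calls. Pcna, the ring that holds polymerases on DNA, was the highest member with a median of 163 TPM over the 10 libraries. It was at 208 and 155 TPM in the growing control lines and 111 and 115 TPM without growth factors, and at 165, 188 and 183 TPM in the growing Atrx-deleted lines and 146, 259 and 161 TPM without growth factors. The 2 control libraries without growth factors were the lowest, but Pcna was called in 0 of the 5 comparisons (-0.67 in the control lines, adjusted p = 0.18, and 0.69 between the genotypes without growth factors, adjusted p = 0.141). Rfc1 to Rfc5, which open the clamp, gave between 0.27 for Rfc4 and 0.76 for Rfc5 in the same comparison. Rfc3 had the only positive value of the 6 for the medium in the control lines (0.19). The RPA subunits, which coat single strands, were at 66.9 to 99.04 TPM for Rpa1, with Rpa2 and Rpa3 giving 0.40 and 0.34 between the genotypes without growth factors. The Rpa1 levels varied least of the 5 highest members, 1.48-fold from the lowest to the highest library. Fen1 and Lig1, which trim and join Okazaki fragments, gave 0.73 and 0.24. Fen1 was at 42.2 and 34.1 TPM in control cells without growth factors and at 48.7, 75.01 and 70.6 TPM in the Atrx-deleted ones.

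**Figure D3:**
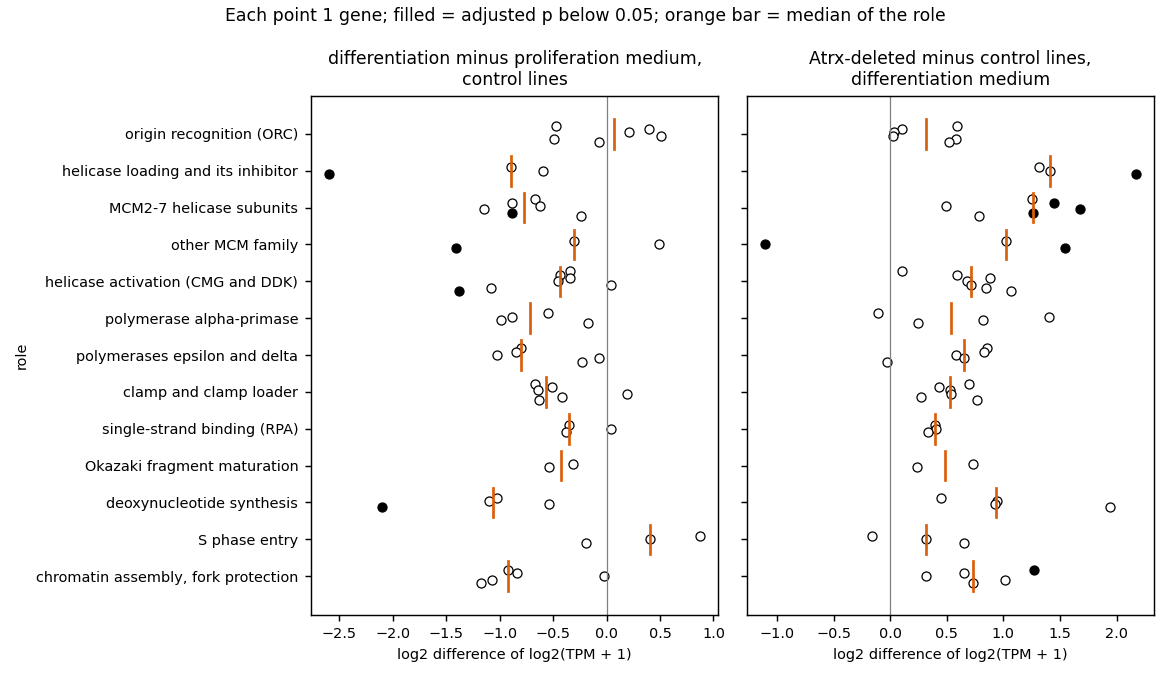
Log2 difference of log2(TPM + 1) on the horizontal axis for each of the 57 genes by role, for the medium in the control lines (left) and for the genotype without growth factors (right). Filled points had an adjusted p below 0.05 and orange bars are the median of the role. On the left most roles lie below 0 except origin recognition and S phase entry, and on the right the highest medians belong to helicase loading (1.41) and Mcm2 to Mcm7 (1.26).

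Deoxynucleotide supply included the widest drop after that of geminin. Tk1 (chromosome 11, 117815526 to 117826092, minus strand), the thymidine kinase of S phase, was at 48.6 and 36.7 TPM in growing control cells, 5.12 and 15.7 TPM in control cells without growth factors, 47.6, 63.8 and 32.97 TPM in growing Atrx-deleted cells and 28.6, 61.6 and 30.6 TPM in Atrx-deleted cells without growth factors. The control values without growth factors were the lowest and lay apart from each other. Tk1 fell by 2.10 in the control lines (SE 0.502, adjusted p = 0.0446), a call that held in 2 of the 10 fits, and was 1.94 between the genotypes without growth factors (SE 0.458, adjusted p = 0.0521), with an interaction of 1.81 (adjusted p = 0.607). Rrm1 and Rrm2, the subunits of ribonucleotide reductase, were among the 5 highest members. Rrm1 was at 116 and 72.2 TPM in the growing control lines and 42.4 and 46.6 TPM without growth factors, and at 66.996, 80.3 and 71.3 TPM in the growing Atrx-deleted lines and 49.7, 83.6 and 54.6 TPM without growth factors. Rrm2 was at 95.4 and 58.2 TPM in the growing control lines and 32.6 and 36.1 TPM without growth factors, and at 72.96, 82.4 and 70.2 TPM in the growing Atrx-deleted lines and 47.9, 119 and 52.5 TPM without growth factors. Both were lowest in the control lines without growth factors, with -1.02 (adjusted p = 0.0675) and -1.10 (adjusted p = 0.138) for the medium. Tyms, which makes thymidylate, was at 10.2 and 11.2 TPM in the growing control lines and 5.49 and 8.90 TPM without growth factors, and at 16.1, 11.6 and 10.7 TPM in the growing Atrx-deleted lines and 13.01, 17.5 and 12.8 TPM without growth factors, and its difference between the genotypes was 0.93 without growth factors (adjusted p = 0.12).

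The 3 genes of S phase entry had 0 calls and, unlike most roles, a positive median for the medium in the control lines (0.41). Ccne1, a cyclin E that starts S phase with Cdk2, was at 8.87 and 9.59 TPM in the growing control lines and 14.5 and 21.7 TPM without growth factors, and at 8.62, 6.95 and 12.4 TPM in the growing Atrx-deleted lines and 10.04, 16.98 and 22.5 TPM without growth factors. It was higher in both control libraries without growth factors than in both growing ones (0.87, adjusted p = 0.258), and the Atrx-deleted lines gave 0.73 (adjusted p = 0.332). Ccne2, the second cyclin E, was at 14.9 and 10.02 TPM in the growing control lines and 14.7 and 18.5 TPM without growth factors, and at 16.5, 17.5 and 12.04 TPM in the growing Atrx-deleted lines and 22.5, 19.4 and 20.7 TPM without growth factors, and in the Atrx-deleted lines each library without growth factors was above each growing one. Exons of Ints8 on the opposite strand share 17.4% of the exon bases of Ccne2, so this level is uncertain. E2f1, an activating E2F, was at 10.1 and 11.8 TPM in the growing control lines and 8.03 and 11.1 TPM without growth factors, and at 17.3, 10.8 and 12.8 TPM in the growing Atrx-deleted lines and 13.2, 10.7 and 25.9 TPM without growth factors, with overlap in both media and a library of mA19d#7 at the top.

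Chaf1a (chromosome 17, 56040439 to 56072289, plus strand), the large subunit of the chaperone CAF-1 that places H3 and H4 on new DNA, was at 38.4 and 28.1 TPM in growing control cells, 15.6 and 18.1 TPM in control cells without growth factors, 54.6, 67.6 and 45.4 TPM in growing Atrx-deleted cells and 32.97, 60.8 and 37.1 TPM in Atrx-deleted cells without growth factors. Each Atrx-deleted library was above both control libraries of its medium. The difference was 1.27 without growth factors (SE 0.282, adjusted p = 0.043), which held in 2 of the 10 fits, and 0.73 in growing cells (adjusted p = 0.293). Exons of Ubxn6 on the opposite strand share 52.5% of its exon bases, so this level is uncertain. Timeless, which with Tipin steadies the fork, was at 18.7 and 15.001 TPM in the growing control lines and 8.47 and 6.51 TPM without growth factors, and at 26.5, 20.1 and 14.9 TPM in the growing Atrx-deleted lines and 17.5, 19.6 and 12 TPM without growth factors. Tipin differed by 0.32 without growth factors against 1.01 for Timeless (adjusted p = 0.105). Chaf1b, the middle subunit of CAF-1, and Wdhd1, which ties polymerase alpha to the helicase, gave 0.65 and 0.73 and overlapped.

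The difference between the media varied in size among the 5 lines, each with 1 library per medium and so without a test. From growing cells to cells without growth factors 48 of the 57 members were lower in Control NSC#1 and 45 in Control NSC#2, with medians of -0.81 and -0.30. In mA16d#4 44 were lower (median -0.39), in mA19d#4 26 were lower and 30 higher (median 0.03), and in mA19d#7 33 were lower (median -0.07). The pairs rest on the line labels, and the mA19d#7 library without growth factors was closer to growing mA16d#4 than to growing mA19d#7, so its value may not be a change within 1 line. Over all tested genes 46.7% to 51.6% were lower in a line. The line mA16d#4 had a count of lower members near that of the control lines. The medians of the 12 mitotic markers were -2.70, -2.44, -1.74, -0.24 and -0.04 in the same order of lines. The growing control libraries also differed from each other, since 50 of the 57 members were lower in Control NSC#2 than in Control NSC#1, with a median difference of -0.39. Of all tested genes 53.7% were higher in Control NSC#2.

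**Figure D4:**
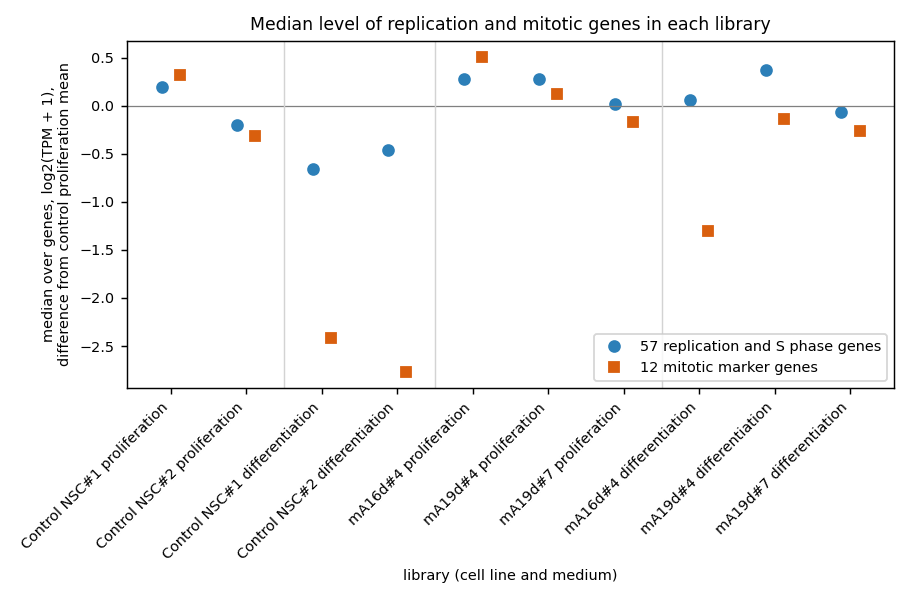
Median over 57 replication and S phase genes (circles) and over 12 mitotic markers (squares) of log2(TPM + 1) minus the mean of the growing control libraries, for each of the 10 libraries. The control libraries without growth factors are lowest for both (-0.66 and -0.46 for the members, -2.42 and -2.77 for the mitotic markers), and among Atrx-deleted libraries without growth factors mA16d#4 has the lowest mitotic median (-1.30) while its member median is 0.06.

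The mitotic markers, which are genes of G2 and mitosis and contain no member, had larger median differences than the members in the control lines with the medium and between the genotypes without growth factors, but not between growing cells (0.15 against 0.19). In the control lines all 12 had a negative difference with the medium (median -2.68) and 10 were called lower, beside 2.56% of all tested genes. Without growth factors 9 of 12 were called higher in the Atrx-deleted lines (median 2.06), beside 1.55% of all tested genes. Among growing cells 0 were called between the genotypes with 1 higher at an unadjusted p below 0.05, and 0 were called in the interaction with 10 higher at that level. Over all 15660 tested genes 1071 and 579 were higher at that level in the same order. Mki67 was at 306 and 171 TPM in the growing control lines and 23.1 and 23.5 TPM without growth factors, and at 189.6, 169 and 170.2 TPM in the growing Atrx-deleted lines and 55.6, 163 and 90.5 TPM without growth factors. Cdkn1a, a Cdk inhibitor that p53 activates, was at 11.1 and 9.36 TPM in the growing control lines and 16.3 and 17.1 TPM without growth factors, and at 68.1, 67.2 and 59.01 TPM in the growing Atrx-deleted lines and 99.6, 46.01 and 33.6 TPM without growth factors. It was called higher in the Atrx-deleted lines in both media (2.55, adjusted p = 0.0222, and 1.63, adjusted p = 0.043). Its part in the differences of the members was not tested. Ccnd1, the cyclin that growth factors induce, was at 242 and 170.1 TPM in the growing control lines and 96.9 and 105 TPM without growth factors, and at 114, 206 and 221 TPM in the growing Atrx-deleted lines and 83.2, 168 and 98.2 TPM without growth factors. It was called in neither comparison of genotypes.

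Among 52 other genes of replication, nucleotide supply and the E2F family, 6 were called lower and 1 higher with the medium in the control lines. Over all tested genes 2.56% and 1.95% were, and the median of the 52 was -0.30. The largest falls were those of Top2a, the topoisomerase that is also on the mitotic list (-2.75), E2f8, a repressing E2F (-2.22), and Ccna2, cyclin A (-2.13). Asf1a was the gene called higher. Without growth factors 9 of the 52 were called higher in the Atrx-deleted lines and 0 lower, beside 1.55% and 1.33% of all tested genes. At an unadjusted p below 0.05, 21 were higher and 4 lower, beside 1620 and 1545 of the 15660 tested genes. The median of the 52 was 0.48 there. The largest were Top2a (2.20), E2f2, an activating E2F (2.18), and Asf1b, the histone chaperone of dividing cells (1.84). E2f2 was at 7.69 and 6.04 TPM in the growing control lines and 1.54 and 1.54 TPM without growth factors, and at 15.01, 7.62 and 6.50 TPM in the growing Atrx-deleted lines and 14.8, 10.8 and 7.23 TPM without growth factors. Limma called 0 of the 52 in growing cells, in the Atrx-deleted lines and in the interaction, with 5 higher and 0 lower, 4 higher and 3 lower, and 5 higher and 1 lower at an unadjusted p below 0.05. Over all 15660 tested genes these counts were 1071 and 1077, 1171 and 1148, and 579 and 520.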

How the data were processed

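RNA was extracted with an RNeasy kit and libraries were made with a TruSeq RNA kit, per the labels' protocols. Reads were aligned with STAR to mm10, per the submitters' processing notes, while the counting tool, its use of strand and all versions are not stated there. The authors deposited 1 table of log2 TPM of 21101 genes in 10 libraries, with values from -8 to 13.428. Every library holds the same sorted values, as quantile normalisation leaves them, and a back-transformed sum of 997524, so changes in total RNA cannot be seen. TPM were recovered from the log2 values, and limma 3.58.1 in R 4.3.3 was run on log2(TPM + 1) with 4 group means and a variance trend over the mean level, which left 6 residual degrees of freedom. This scale understates changes of low genes. Genes with 1 TPM or more in 2 or more libraries were tested, and p-values were adjusted by Benjamini-Hochberg over all of them, at a threshold of 0.05. The code was tested on simulated data.

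The members, the 13 roles, the wider list and the markers were chosen with earlier results of these data known. All members could be named. Those of smallest adjusted p in a role and a fixed set were given by library, and at most 3 genes of the wider list in each direction. Line labels recur in both media. The correlation of a line's deviations from its group means between the media was 0.0624 for the control lines, 0.159 for mA16d#4, 0.404 for mA19d#4 and -0.194 for mA19d#7, and the cell line as a replicate block was an alternative. Other alternatives were pseudocounts, filters, limma without trend, robust or with a weight per group, median-of-ratios scaling, compared groups fitted alone and each library left out. Positions are from GENCODE M21 (GRCm38). Promoter windows are from RefSeq (GRCm38.p6). Genes without a RefSeq window were Ccne2, Mcm4, Pole, Rfc2, Gins2, Gins4, Gmnn, Gins1, Tipin and Prim2. Exons of 14 of the 57 members share bases with another tested gene, so their levels are uncertain. These include Rfc2 (15.1% of its exon bases, with Lat2), Rfc4 (12.7%, with Eif4a2), Rfc5 (10.7%, with Wsb2) and Mcm7 (7.25%, with Ap4m1).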

Additional observations from a re-analysis of the deposited data

How the results depend on the processing

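No member that had an unadjusted p below 0.05 changed its direction under any alternative, and for the change of medium in the Atrx-deleted lines and the interaction 0 members were called under every alternative run. Between growing cells the count was 0 except with a weight per group, where it was 3, and the median of the members ranged from 0.0099 to 0.39 over the fits that left out 1 library. Between the genotypes without growth factors the count of 7 became 4 without a filter and 0 when the groups were fitted alone, and ranged from 0 to 12 over the left-out libraries. For the medium in the control lines the count of 5 became 1 without a filter, 2 without the trend, 20 with a weight per group, 3 with the replicate block of the cell line and 12 with that block and without mA19d#7. It ranged from 0 to 9 over the left-out libraries, and the median from -0.75 to -0.37. A fit with 1 library left in a group assumes that it varies like the other groups. The pairs of the block rest on the line labels, and the block changed no other count of members called. Median-of-ratios scaling moved no library by more than 0.046 and no count of members called by over 1.5 times. Over all 57 members 29 changed sign under some alternative for growing cells, 8 without growth factors, 11 for the medium in the control lines, 16 for the medium in the Atrx-deleted lines and 23 for the interaction. Depth is unknown, so it is not known which low levels, such as those of Cdc6 and Orc1, rest on few reads. The causes of these shifts were not tested.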
